A study of Mus musculus with 2 samples.

Results

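CpG methylation was read at 8 genes of the endoderm lineage, Gata4, Gata6, Sox7, Sox17, Foxa2, Hnf4a, Dab2 and Pdgfra, in a pair of mouse haploid embryonic stem cell lines. The genes were chosen by name as regulators and markers of endoderm, out of 49943 genes in the gene table used here, and the rule uses no measured value. The choice was made with earlier results of these data known. A locus ran from 5 kb outside the gene start to 5 kb outside the gene end. A CpG was compared where at least 10 reads covered it in both libraries. The 8 loci held 1372 CpGs listed in either library, of which 837 were compared, out of 1030368 compared CpGs in the genome. A129-2 cells have a 129Sv strain background and AOS-14 cells a C57BL/6 background. Both lines carry a single chromosome set and were obtained by fluorescence sorting from embryos labelled AG-haploid, a name read here as androgenetic, with a paternal set alone. Each line gave 1 library of bulk genomic DNA, so line, strain and library cannot be told apart. Reads of both lines were placed on the build mm10. Whether the strains differ in sequence at single CpGs, including those without a methylated read in A129-2, was not tested. There is no replicate for any difference reported here, and the tests and exact intervals cover the counting error of 2 libraries only. A read that spans several CpGs is counted at each of them. Region tests and pooled intervals treat these counts as independent, so their p can be too small and the intervals too narrow. DNA methylation holds no transcript levels, so the labelled cell type could not be checked against marker expression.

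Primitive endoderm is the sister lineage of the epiblast in the blastocyst, and embryonic stem cells descend from the epiblast side. GATA6 and GATA4 head the primitive endoderm programme, SOX7, SOX17, FOXA2 and HNF4A act within it or in later endoderm, and DAB2 and PDGFRA are products by which its cells are recognised. Methylation of CpG-rich promoters is in general associated with silence, but many developmental regulators are silent in embryonic stem cells while their CpG islands stay free of methylation.

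RefSeq promoter sequences (GRCm38.p6, the assembly of mm10) were at hand for 8 listed starts of 4 of the genes, Foxa2, Hnf4a, Dab2 and Pdgfra. Each runs from 250 bases before to 50 bases after a listed start. The 4 that hold compared CpGs are shown because they are the stretches at known starts where methylation could be read base by base. Capitals mark the compared CpGs and every other base is in lower case.
Foxa2, outermost start, chr2:148046920-148047219, minus strand: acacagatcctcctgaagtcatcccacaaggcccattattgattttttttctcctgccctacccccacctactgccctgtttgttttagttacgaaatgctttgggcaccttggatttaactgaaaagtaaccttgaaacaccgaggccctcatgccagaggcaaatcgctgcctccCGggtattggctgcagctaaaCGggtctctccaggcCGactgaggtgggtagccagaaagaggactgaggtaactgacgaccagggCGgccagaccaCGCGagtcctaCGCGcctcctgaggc
Foxa2, inner start, chr2:148045899-148046198, minus strand: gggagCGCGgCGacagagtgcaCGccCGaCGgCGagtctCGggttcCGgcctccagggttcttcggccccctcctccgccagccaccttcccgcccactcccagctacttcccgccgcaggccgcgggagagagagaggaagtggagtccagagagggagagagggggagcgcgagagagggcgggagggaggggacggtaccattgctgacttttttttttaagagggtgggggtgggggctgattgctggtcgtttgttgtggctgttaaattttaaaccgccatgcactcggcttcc
Hnf4a, outer start, chr2:163506607-163506906, plus strand: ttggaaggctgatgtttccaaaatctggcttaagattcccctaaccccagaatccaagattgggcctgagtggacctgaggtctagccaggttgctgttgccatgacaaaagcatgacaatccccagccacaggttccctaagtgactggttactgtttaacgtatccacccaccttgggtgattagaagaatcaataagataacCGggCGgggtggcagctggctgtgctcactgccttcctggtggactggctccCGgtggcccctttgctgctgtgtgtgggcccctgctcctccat
Dab2, internal start, chr15:6386498-6386797, plus strand: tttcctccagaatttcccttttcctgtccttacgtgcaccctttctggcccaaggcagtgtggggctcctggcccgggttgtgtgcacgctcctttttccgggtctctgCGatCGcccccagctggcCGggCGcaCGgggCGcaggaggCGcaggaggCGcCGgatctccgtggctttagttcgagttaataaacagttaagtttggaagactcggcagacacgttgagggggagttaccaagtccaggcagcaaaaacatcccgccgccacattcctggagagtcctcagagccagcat
The Foxa2 sequence at the outermost start had 8 compared CpGs, which averaged 4.12% in A129-2 and 3.85% in AOS-14. At the inner Foxa2 start the 9 compared CpGs averaged 0.407% in A129-2 and 0.597% in AOS-14, behind 259 to 308 reads per CpG in A129-2 and 124 to 189 in AOS-14. The 3 CpGs of the Hnf4a sequence averaged 9.75% in A129-2 and 13.7% in AOS-14. The 9 CpGs of the Dab2 sequence averaged 4.43% in A129-2 and 3.47% in AOS-14. No CpG in these 4 stretches passed the test for a difference. CCGG, the site cut by the enzyme MspI (its reverse complement reads the same), was found in 5 of the 8 listed sequences and in 52.8% of 32851 RefSeq promoter sequences of the same length. GATAA, a form of the core letters bound by GATA factors, was found on either strand in 3 of the 8 and in 25.4% of all. A match to these letters is a description of the sequence and not a binding site.

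The 8 loci were sparsely methylated in both lines. Their 837 CpGs averaged 5.96% in A129-2 and 7.66% in AOS-14, a difference of -1.71 percentage points. Over all compared CpGs the means were 9.48% in A129-2 and 15.0% in AOS-14. The level in A129-2 was 0.777 of that in AOS-14 over the 8 loci and 0.632 of it over all CpGs. Levels of at least 50% were found at 2 CpGs of the loci in A129-2 and 2 in AOS-14, or 0.239% of the CpGs in each, while 1.02% of all CpGs reached that level in A129-2 and 6.09% in AOS-14. No methylated read was found in either line at 152 CpGs, or 18.2%, against 17.2% of all CpGs. The median depth at the loci was 73 reads per CpG in A129-2 and 97 in AOS-14.

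Levels inside and outside the site CCGG lay further apart than the lines did. At the 224 CpGs inside CCGG the loci averaged 15.2% in A129-2 and 19.9% in AOS-14. At the other 613 CpGs they averaged 2.57% in A129-2 and 3.18% in AOS-14. The same split over the genome gave 18.9% in A129-2 and 27.9% in AOS-14 inside CCGG, and 4.74% in A129-2 and 8.49% in AOS-14 outside it. CpGs in CCGG made up 26.8% of the compared CpGs of the loci and 33.4% of all. Of the loci's CpGs at 10% or more, they made up 79.6% in A129-2 and 79.0% in AOS-14. At each locus the CpG with the highest level in either line was inside CCGG. The title of the series speaks of reduced representation bisulfite sequencing, which cuts at CCGG, while the protocol describes capture. The part of the library method in the high levels at CCGG was not tested. Body means outside CCGG are therefore given for each gene below.

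**Figure D1:**
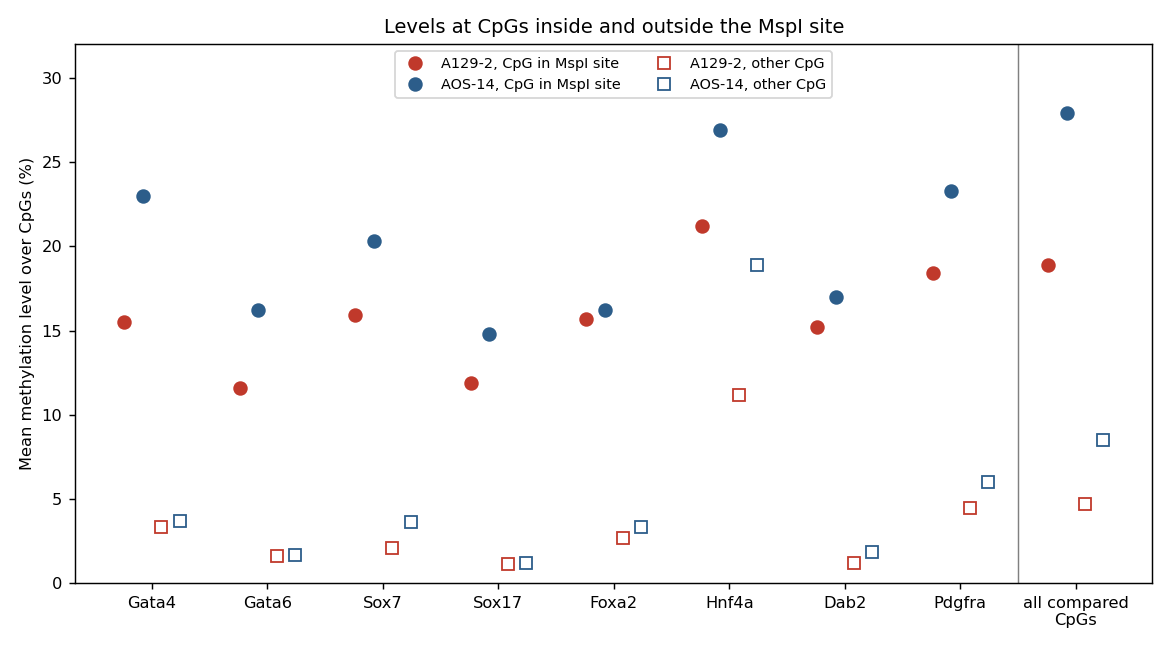
Mean methylation level over compared CpGs (vertical axis, percent) at each of the 8 loci and over all compared CpGs, for A129-2 (red) and AOS-14 (blue), with filled circles for CpGs inside the MspI site CCGG and open squares for other CpGs. At each locus the circles lie above the squares, and Hnf4a has the highest squares, 11.2% in A129-2 and 18.9% in AOS-14.

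By mean level over CpGs the order of the loci was the same in both lines. From high to low it ran Hnf4a, Pdgfra, Gata4, Sox7, Dab2, Foxa2, Gata6 and Sox17. Hnf4a averaged 17.2% in A129-2, against 23.7% in AOS-14, and Sox17 averaged 3.44% in A129-2, against 4.08% in AOS-14. The ratio of the lines ran from 0.723 at Sox7 to 0.907 at Foxa2, below 1 at all 8. Weighted by reads, Hnf4a was 14% in A129-2 (exact 95% binomial interval 13.1 to 14.9%) and 22.9% in AOS-14 (21.9 to 24.0%), which overlapped no other locus. The order below it then differed between the lines. In A129-2 Pdgfra (10.5%, interval 9.70 to 11.3%) stood above Dab2 (7.84%, 6.09 to 9.91%), with intervals that met. In AOS-14 Dab2 (16.7%, 14 to 19.8%) stood above Pdgfra (12.7%, 11.9 to 13.5%). At the low end the intervals of neighbours met: Foxa2 was 4.0% (3.69 to 4.32%), Gata6 3.80% (3.54 to 4.07%) and Sox17 3.42% (3.11 to 3.76%) in A129-2. In AOS-14 the reads of Gata6 gave 4.22% (3.97 to 4.47%) and those of Sox17 4.20% (3.86 to 4.56%), which cannot be ordered.

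By region, all 8 gene bodies passed the test for a difference between the lines, while no promoter at an outer gene start and no flank passed. Of 5 testable windows at starts that RefSeq lists, 2 inside genes passed, 1 in Foxa2 and 1 in Hnf4a, and both are described with their genes. Both were lower in A129-2, where 28.0% of all windows at listed starts were lower and 0.659% higher. A promoter is the 1 kb outside the gene start with the first 0.5 kb inside it, and a body is the rest of the gene. With Fisher's exact test on summed reads, adjusted over all units of the kind in the genome (adjusted exact p), none of the 5 promoters that could be tested (those with at least 5 compared CpGs) passed, 0 lower and 0 higher in A129-2, where 30.1% of all promoters were lower and 0.783% higher. Only Sox7 was under 0.05 before adjustment. All 8 bodies were lower in A129-2, where 81.3% of all bodies were lower and 0.559% higher, so that count is close to what bodies show in general. In each of the 8 the level weighted by reads, which the test compares, was lower too. Single body CpGs were less uniform. Those lower in A129-2 were 107 of 199 at Gata4, 66 of 144 at Gata6, 11 of 16 at Sox7 and 40 of 94 at Sox17. They were 35 of 62 at Foxa2, 21 of 27 at Hnf4a, 4 of 11 at Dab2 and 32 of 53 at Pdgfra. The rest were higher or tied. The sizes were small: the median over the 8 bodies was 6.34% in A129-2, against 8.14% in AOS-14, with a median difference of -2.05 points. None of the 8 body differences reached 10 points, a size that 27.0% of all bodies reached downward. None of 4 testable upstream flanks (5 to 1 kb outside the start) passed, where 60.6% of all were lower and 1.03% higher. The 1 testable downstream flank, that of Foxa2, did not pass either, where 62.6% of all were lower and 1.18% higher. No upstream or downstream flank of these was under 0.05 before adjustment. Of the 32 regions of the 8 genes, 18 were tested, 11 had no compared CpG and 3 had 1 to 4.

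**Figure D2:**
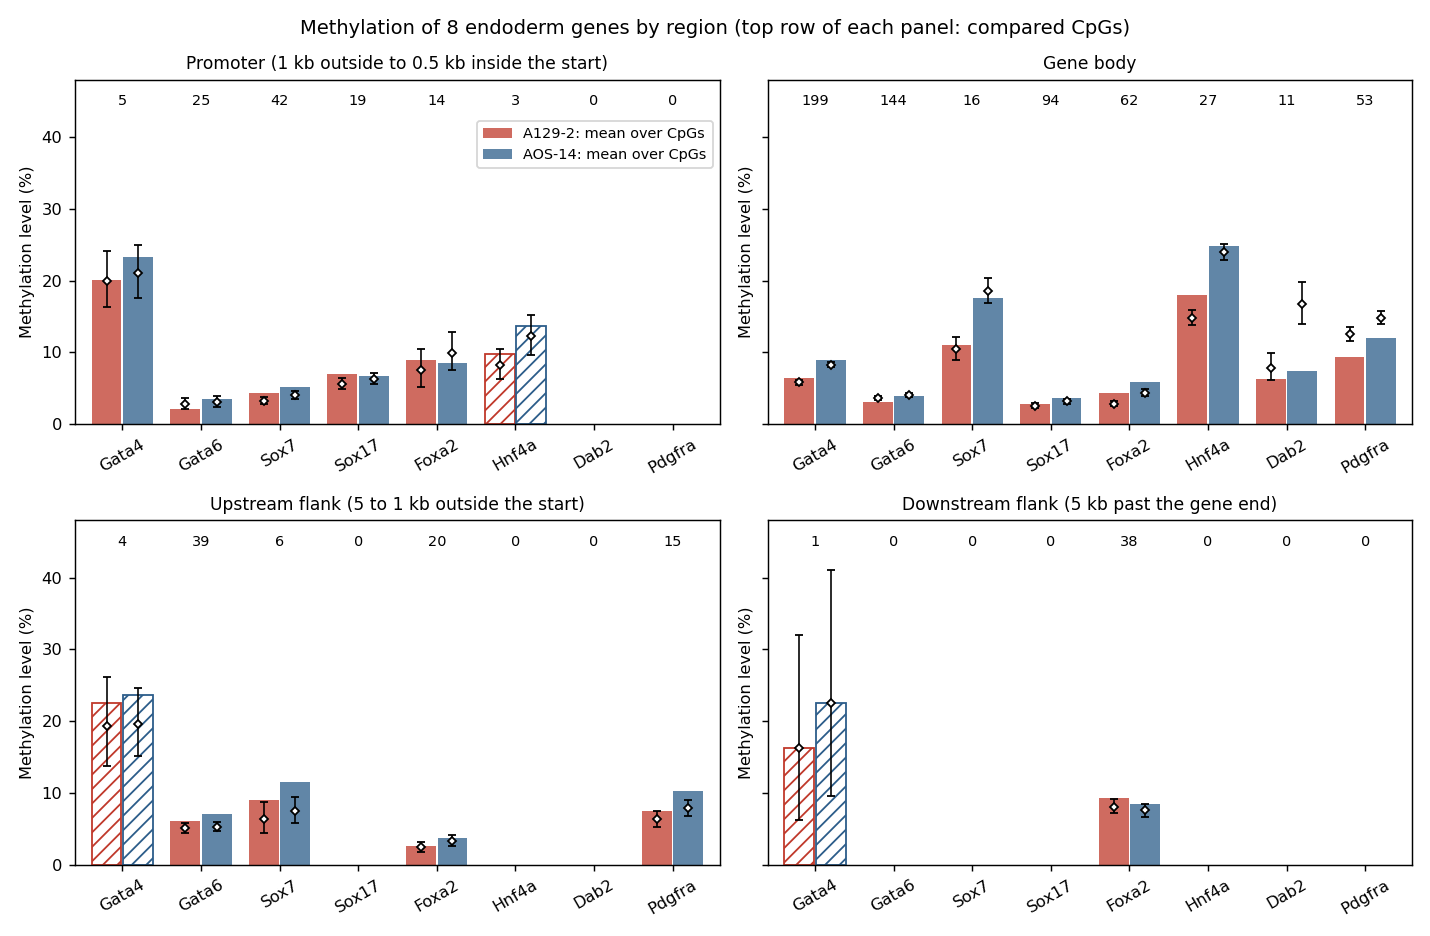
Methylation level in percent (vertical axis) by gene in 4 kinds of region, with A129-2 in red left of AOS-14 in blue. Bars are means over CpGs (hatched where fewer than 5 CpGs were compared and no test was made), diamonds are levels weighted by reads with exact 95% binomial intervals, and the top row gives the number of compared CpGs. Among bodies, those of Hnf4a (18.0% in A129-2, 24.8% in AOS-14) and Sox7 (11% in A129-2, 17.5% in AOS-14) have the highest bars, and the promoters of Gata6, Sox7 and Sox17 all lie under 10%.

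Gata4, a zinc finger transcription factor of primitive endoderm and later of heart and gut, lies at chr14:63198914-63271712. Its body held 199 compared CpGs and averaged 6.38% in A129-2, against 8.91% in AOS-14 (adjusted exact p = 1.05e-19), with 107 of them lower in A129-2. Outside CCGG its 140 body CpGs averaged 2.86% in A129-2 and 3.21% in AOS-14, and the body still passed. The window at the gene start had 5 CpGs, which averaged 20.1% in A129-2, against 23.3% in AOS-14, and did not pass (adjusted exact p = 0.841). No listed start from the promoter table was at hand for this gene, and the start used is the end of the gene with more compared CpGs. Starts further inside, such as those listed for Foxa2, Hnf4a and Dab2, could not be looked up. CpGs counted here as body may therefore lie at a start. Most of its CpGs lay in clusters 15.6 to 30.9 kb inside that end, and the densest of these were low. The 43 CpGs of the 1 kb window at 26.3 kb averaged 3.25% in A129-2 and 5.34% in AOS-14 and did not pass (adjusted exact p = 0.165). The 33 CpGs at 30.9 kb averaged 2.97% in A129-2 and 4.77% in AOS-14, which passed (adjusted exact p = 0.00647).

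Single CpGs of Gata4 stood well above these means. The CpG at position 63213526, in a CCGG and 58.2 kb from the start, had 16.7% in A129-2 (3 of 18 reads, exact 95% interval 3.58 to 41.4%). In AOS-14 it had 62.5% (25 of 40 reads, 45.8 to 77.3%), the highest level of the 837 CpGs in either line, and the difference passed the test over all CpGs (adjusted exact p = 0.0161). The 1 CpG above 50% in both lines was also in Gata4, at position 63270370, with 51.7% in A129-2 (31 of 60 reads) and 53.6% in AOS-14 (45 of 84 reads). Near the cluster at 30.1 kb, the CpG at 63241598 had 17.2% in A129-2 (11 of 64 reads) and 37.1% in AOS-14 (52 of 140 reads; adjusted exact p = 0.0417). It is not in a CCGG. The CpG at 63245248, in a CCGG, had no methylated read in A129-2 (0 of 26, which allows up to 13.2% by the exact 95% interval) and 23.0% in AOS-14 (20 of 87 reads), which passed narrowly (adjusted exact p = 0.0484). The call was lost with a minimum of 5 reads (adjusted exact p = 0.0524) and without the deepest 1% of CpGs (adjusted exact p = 0.0521). At 30.1 kb the window of 5 CpGs averaged 11.6% in A129-2, against 21.8% in AOS-14 (adjusted exact p = 0.00325), the highest window of the locus in AOS-14.

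Gata6, the factor whose forced expression turns mouse embryonic stem cells towards primitive endoderm, lies at chr18:11052510-11085636. Its promoter was the least methylated of the 5 tested, at 2.12% in A129-2, against 3.48% in AOS-14 over 25 CpGs (adjusted exact p = 0.715). Outside CCGG its 19 promoter CpGs averaged 0.103% in A129-2 and 0.296% in AOS-14. The body, 144 CpGs that all lay within 6.28 kb of the start, averaged 3.02% in A129-2 and 3.87% in AOS-14 and passed narrowly (adjusted exact p = 0.0373). Outside CCGG its 121 body CpGs averaged 1.24% in A129-2 and 1.51% in AOS-14, a difference of -0.28 points that did not pass (adjusted exact p = 0.287). It also missed the threshold without the CpG of most reads (adjusted exact p = 0.0814). The CpGs upstream of the gene lie inside the lncRNA gene Gata6os, and they averaged 6.02% in A129-2, against 7.10% in AOS-14 over 39 CpGs (adjusted exact p = 0.829). One of these, at 11049474 and in a CCGG, passed alone with 3.64% in A129-2 (2 of 55 reads) and 34.8% in AOS-14 (8 of 23 reads; adjusted exact p = 0.00711). Its window at -3.10 kb was the highest of the locus in AOS-14, with 9.95% in A129-2, against 14.7% in AOS-14, over 7 CpGs, and did not pass (adjusted exact p = 0.467). The other Gata6 CpG that passed, at 11055449 and outside CCGG, had 7.56% in A129-2 (34 of 450 reads) and 14.3% in AOS-14 (70 of 488 reads; adjusted exact p = 0.0122).

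One window of the 8 loci was higher in A129-2, and it was in Gata6, at 1.07 kb inside the start; it is named here after its values were seen. Its 11 CpGs averaged 10.9% in A129-2, against 6.12% in AOS-14 (adjusted exact p = 0.0490), and 10 of them pointed that way. No single CpG of it passed. The mean leaned on the CpG at 11053324, with 35.0% in A129-2 (7 of 20 reads) and 6.25% in AOS-14 (1 of 16 reads). With a minimum of 20 reads the window's difference was 1.92 points and did not pass (adjusted exact p = 0.145), and outside CCGG it was 1.89 points (adjusted exact p = 0.229). The call was lost as well with the reads of either strand alone. Neither adjoining window passed: the 25 CpGs at 0.233 kb averaged 2.12% in A129-2, against 3.48% in AOS-14 (adjusted exact p = 0.670), and the 106 CpGs at 2.01 kb averaged 1.92% in A129-2, against 2.80% in AOS-14 (adjusted exact p = 0.208). The next window, at 2.75 kb, was lower in A129-2, with 3.99% in A129-2, against 6.23% in AOS-14 over 25 CpGs (adjusted exact p = 2.29e-06).

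Sox7, a SOX factor of primitive and parietal endoderm, lies at chr14:63943706-63950732. The promoter held 42 compared CpGs, the most of the 8 genes, and averaged 4.26% in A129-2 and 5.18% in AOS-14 (p = 0.0275 before and 0.0773 after adjustment, Fisher's exact test). The call depended on the bounds. The 1 kb window at -0.215 kb holds 37 of these CpGs, which averaged 3.52% in A129-2, against 4.58% in AOS-14, and was lower in A129-2 (adjusted exact p = 0.00471). With the window opened to 2 kb outside the start, the difference was -1.11 points and passed (adjusted exact p = 0.0195). The body averaged 11% in A129-2, against 17.5% in AOS-14 over 16 CpGs (adjusted exact p = 3.28e-11), and its 10 CpGs outside CCGG averaged 5.32% in A129-2 and 10.9% in AOS-14. Within it, a stretch of 8 CpGs about 4.60 kb from the start gave the highest AOS-14 window of all 8 loci, with 15.6% in A129-2, against 28.7% in AOS-14 (adjusted exact p = 3.72e-06). All 8 CpGs were lower in A129-2. The body call leaned on this stretch and on its read numbers, 409 of the body's 1571 read counts in A129-2 and 888 of 1989 in AOS-14. The other body CpGs lie in the window at 0.520 kb. Its 13 CpGs, some of them in the promoter, averaged 7.72% in A129-2 and 7.55% in AOS-14 and did not pass (adjusted exact p = 0.754). The CpG at 63948127 had no methylated read in A129-2 (0 of 29, which allows up to 11.9% by the exact 95% interval) and 34.9% in AOS-14 (15 of 43; adjusted exact p = 0.00259). Its neighbour at 63948154 was at 0% in A129-2 (0 of 20 reads) and 6.06% in AOS-14 (2 of 33 reads). A second CpG of the stretch passed, at 63948477, with 24.7% in A129-2 (37 of 150 reads) and 38.6% in AOS-14 (137 of 355 reads; adjusted exact p = 0.0258). The CpG at 63948223 had 20% in A129-2 (3 of 15 reads) and 40.0% in AOS-14 (10 of 25 reads), the highest level of the locus in AOS-14, and did not pass (adjusted exact p = 0.812). In this stretch 4 of the 8 CpGs are in CCGG. The highest level of the locus in A129-2 was at the inner edge of the promoter, at 63944197, with 30.1% in A129-2 (28 of 93 reads) and 20.4% in AOS-14 (11 of 54 reads; adjusted exact p = 0.731).

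Sox17, a SOX factor of primitive and definitive endoderm, lies at chr1:4490928-4497426 and had the lowest locus mean of the 8. Its promoter averaged 6.94% in A129-2, against 6.70% in AOS-14 over 19 CpGs (adjusted exact p = 0.330). Its body averaged 2.74% in A129-2, against 3.55% in AOS-14 over 94 CpGs (adjusted exact p = 0.0218), and the call was lost without the CpG of most reads (adjusted exact p = 0.0758). At the 74 body CpGs outside CCGG the means were 0.340% in A129-2 and 0.534% in AOS-14. No single CpG of the locus passed. The highest, at 4492231, had 25% in A129-2 (5 of 20 reads) and 24.3% in AOS-14 (9 of 37 reads).

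**Figure D3:**
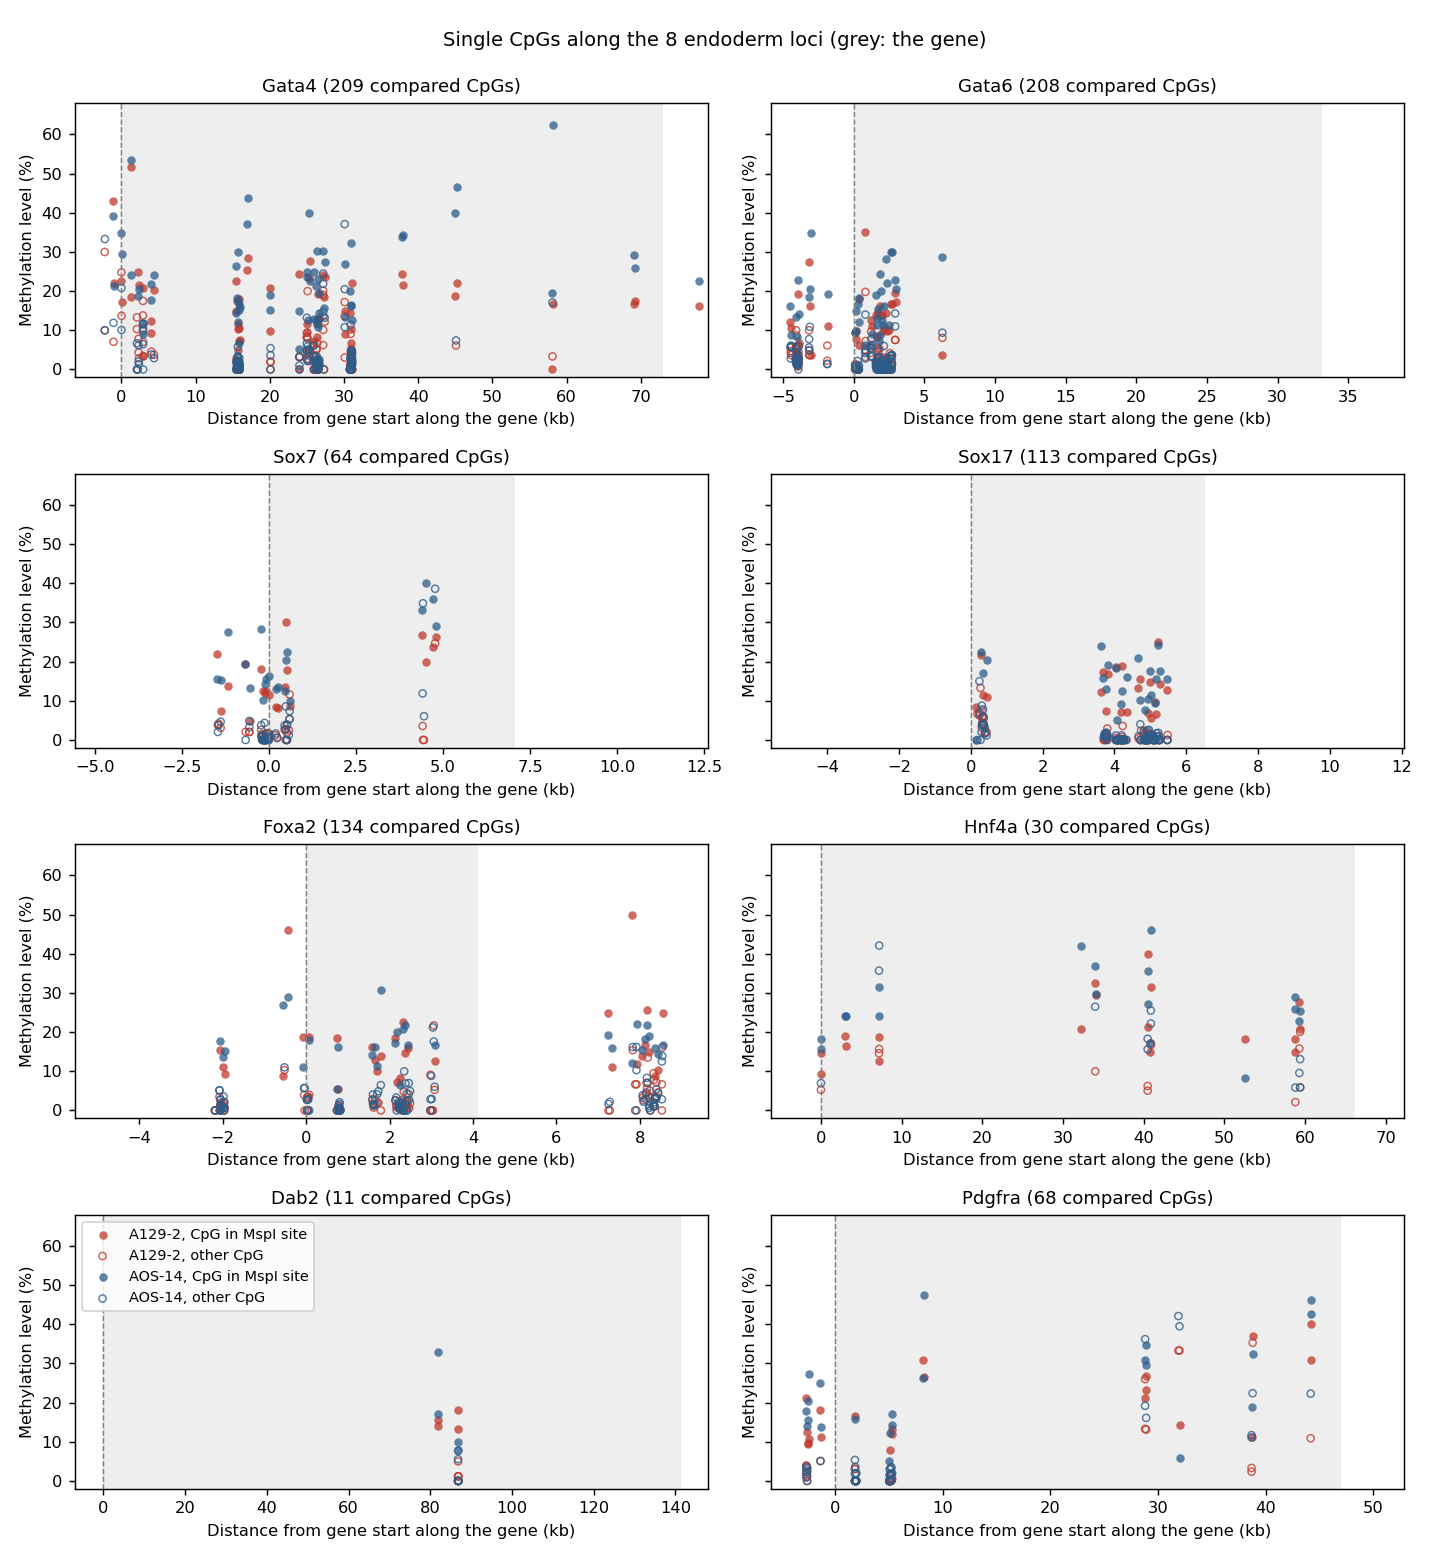
Methylation level in percent (vertical axis) of single compared CpGs against the distance from the gene start in kb (horizontal axis, gene in grey), for A129-2 (red) and AOS-14 (blue), filled for CpGs inside the MspI site and open for others. Gata4, Gata6, Sox17 and Foxa2 show dense clusters of open symbols near 0%, and the highest point, 62.5% in AOS-14, lies in Gata4.

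Foxa2, a pioneer factor that opens chromatin in endoderm and its derivatives, lies at chr2:148042877-148046969, and 3 of its starts are listed. At the outermost start the promoter averaged 8.88% in A129-2, against 8.45% in AOS-14 over 14 CpGs (adjusted exact p = 0.343). Of the sequences shown above, those of Foxa2 fall in this window and in the window of the inner start, 1021 bases inside. That window averaged 3.38% in A129-2, against 2.82% in AOS-14 over 19 CpGs (adjusted exact p = 0.297 over all listed starts). At the innermost start, 1505 bases inside, 24 CpGs averaged 3.92% in A129-2 and 5.26% in AOS-14, which passed (adjusted exact p = 1.91e-05). The pass leaned on read numbers. Its 12 CpGs of higher level held 1446 of its 4253 read counts in A129-2 and 2127 of 3829 in AOS-14. As the 1 kb window at 1.68 kb, these 12 averaged 5.53% in A129-2 and 8.25% in AOS-14 and did not pass (adjusted exact p = 0.141). Over all listed starts 28.0% were lower in A129-2 and 0.659% higher. With a minimum of 5 reads the mean difference at the innermost start was 0.29 points, of the opposite sign. It then passed as higher in A129-2 (adjusted exact p = 3.80e-05), so its direction is not firm.

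The Foxa2 body averaged 4.27% in A129-2, against 5.84% in AOS-14 over 62 CpGs (adjusted exact p = 1.06e-07), and outside CCGG 1.81% in A129-2 and 3.09% in AOS-14 over 48. With a minimum of 5 reads the mean body difference was -0.15 points, against -1.57 points at 10 reads, and the test on summed reads still passed (adjusted exact p = 5.19e-07). Its CpG with the largest difference that passed, at 148044794 and in a CCGG, had 7.32% in A129-2 (12 of 164 reads) and 20% in AOS-14 (23 of 115 reads; adjusted exact p = 0.0254). A second that passed, at 148045177 and outside CCGG, had 0% in A129-2 (0 of 106 reads, which allows up to 3.42% by the exact interval) and 6.47% in AOS-14 (9 of 139 reads; adjusted exact p = 0.0459). The highest window of the locus in AOS-14 lay just outside the start (at -0.298 kb), with 14.7% in A129-2, against 14.9% in AOS-14, over 6 CpGs (adjusted exact p = 0.295). The downstream flank averaged 9.31% in A129-2, against 8.44% in AOS-14 over 38 CpGs (adjusted exact p = 0.50). All 38 lie in the lncRNA gene 9030622O22Rik. The highest single level of the locus in A129-2 was there, 50% at 148039154 (5 of 10 reads, exact 95% interval 18.7 to 81.3%), where AOS-14 had 12% (3 of 25 reads).

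Hnf4a, a nuclear receptor of visceral endoderm, liver and gut, lies at chr2:163506811-163572907 and had the highest locus mean of the 8. Its outer start, whose sequence is shown above, had 3 compared CpGs, too few for the region test. The CpG 7 bases past that start had 9.32% in A129-2 (of 236 reads), against 18.3% in AOS-14 (of 164), and did not pass (adjusted exact p = 0.0717). A second start is listed 40344 bases inside the gene, and the window around it averaged 17.5% in A129-2, against 22.8% in AOS-14 over 5 CpGs (adjusted exact p = 1.15e-04). The body averaged 18.0% in A129-2, against 24.8% in AOS-14 over 27 CpGs (adjusted exact p = 6.13e-31), with 21 of the 27 lower in A129-2. Outside CCGG its 11 body CpGs averaged 11.8% in A129-2, against 20% in AOS-14. At 40.7 kb the window was the highest of the locus in AOS-14, with 19.1% in A129-2, against 26.0% in AOS-14, over 8 CpGs, 7 of them lower in A129-2 (adjusted exact p = 9.06e-09). It contains the 5 CpGs of the window around the second start, so the 2 are not separate results. Of the 23 CpGs of all loci that passed, 8 were in the Hnf4a body.

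A pair of neighbouring Hnf4a CpGs had the smallest p of all 837. The CpG at 163514029 had 15.7% in A129-2 (62 of 396 reads) and 42.1% in AOS-14 (209 of 497 reads; adjusted exact p = 5.66e-16). The CpG at 163514011 had 14.6% in A129-2 (58 of 398 reads) and 35.7% in AOS-14 (178 of 499 reads; adjusted exact p = 3.63e-11). Neither is in a CCGG, and their intervals did not overlap between the lines. Reads of 50 bp span both, so they are not independent of each other. They lie 7.2 to 7.22 kb inside the gene, where the lncRNA gene Hnf4aos overlaps it. Another CpG that passed, at 163539027 and in a CCGG, had 20.8% in A129-2 (15 of 72 reads) and 41.9% in AOS-14 (44 of 105 reads; adjusted exact p = 0.0311). The highest levels of the locus did not pass: 163547268 had 40.0% in A129-2 (8 of 20 reads) and 27.3% in AOS-14 (6 of 22 reads), and 163547715 had 31.5% in A129-2 (23 of 73 reads) and 46.1% in AOS-14 (53 of 115 reads). In all, 13 of the 30 compared CpGs of the locus lie in Hnf4aos.

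Dab2, a clathrin adaptor and marker of primitive and visceral endoderm, lies at chr15:6299788-6440715 and had the fewest compared CpGs, 11 in a gene of 141 kb. Its outer start had none. The 11 fell in 2 clusters 4.89 kb apart with different levels. A pair of CCGG CpGs at 81.8 and 81.9 kb held most of the methylated reads: 15.6% in A129-2 and 32.9% in AOS-14 at 6381622 (adjusted exact p = 0.00318), and 14% in A129-2 and 17.0% in AOS-14 at 6381712. At the internal start the CpG at 6386659 had the highest level of the locus in A129-2, 18.0% (9 of 50 reads), against 8.0% in AOS-14 (2 of 25 reads; adjusted exact p = 0.841). The 9 CpGs there, shown above, averaged 4.43% in A129-2 and 3.47% in AOS-14 and did not pass (adjusted exact p = 0.751). The body test passed at 6.31% in A129-2, against 7.37% in AOS-14 (adjusted exact p = 3.35e-07), but it leaned on the first cluster and on its read numbers. Of the 11 CpGs 4 were lower in A129-2 and 6 higher. Weighted by reads the body stood at 7.84% in A129-2 and 16.7% in AOS-14. Outside CCGG the 7 body CpGs, all at the internal start, averaged 1.22% in A129-2, against 1.89% in AOS-14 (adjusted exact p = 1.0).

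Pdgfra, the receptor tyrosine kinase for PDGF ligands and a surface marker of primitive endoderm, lies at chr5:75151322-75198206. Neither the window at its gene start nor that at its listed start held a compared CpG. The upstream flank averaged 7.53% in A129-2, against 10.2% in AOS-14 over 15 CpGs (adjusted exact p = 0.0822). The body averaged 9.36% in A129-2, against 12% in AOS-14 over 53 CpGs (adjusted exact p = 0.00168). Its 38 body CpGs outside CCGG averaged 4.86% in A129-2 and 6.76% in AOS-14, and the body still passed. The call was lost with plus strand reads alone (-1.80 points, adjusted exact p = 0.471). Levels differed along it. The windows at 1.87 and 5.15 kb averaged 1.76% and 1.93% in A129-2, against 2.35% and 3.35% in AOS-14, and neither passed. The window at 28.9 kb averaged 20.5% in A129-2, against 27.8% in AOS-14 over 6 CpGs, all 6 lower in A129-2 (adjusted exact p = 4.86e-05). The CpG at 75195534, outside CCGG and 44.2 kb inside, had 10.9% in A129-2 (28 of 256 reads) and 22.3% in AOS-14 (62 of 278 reads; adjusted exact p = 0.00584). Upstream of the gene, 75148817, in a CCGG, had 10.6% in A129-2 (13 of 123 reads) and 27.3% in AOS-14 (24 of 88 reads; adjusted exact p = 0.0260). The highest CpG of the locus in A129-2, 75195504, lies near the first of these and did not pass, with 40.0% in A129-2 (70 of 175 reads) and 42.7% in AOS-14 (76 of 178 reads).

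Across the loci, 42 fixed windows of 1 kb had at least 5 compared CpGs. In A129-2, 12 were lower and 1 was higher, or 28.6% and 2.38%, where 55.1% of all windows were lower and 1.14% higher. Levels in AOS-14 were under 10% in 29 of the 42 windows, or 69.0%, against 46.4% of all windows. They reached 20% in 4 of the 42, namely in Sox7, Pdgfra, Hnf4a and Gata4 as described above, against 39.2% of all windows. Each of these 4 was lower in A129-2. They are picked here by a high level in AOS-14, and the share lower among all windows at that level is not given. Their common direction cannot be read as particular to these genes. All 3 Sox17 windows lay at or under 6.99% in A129-2 and 6.23% in AOS-14.

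**Figure D4:**
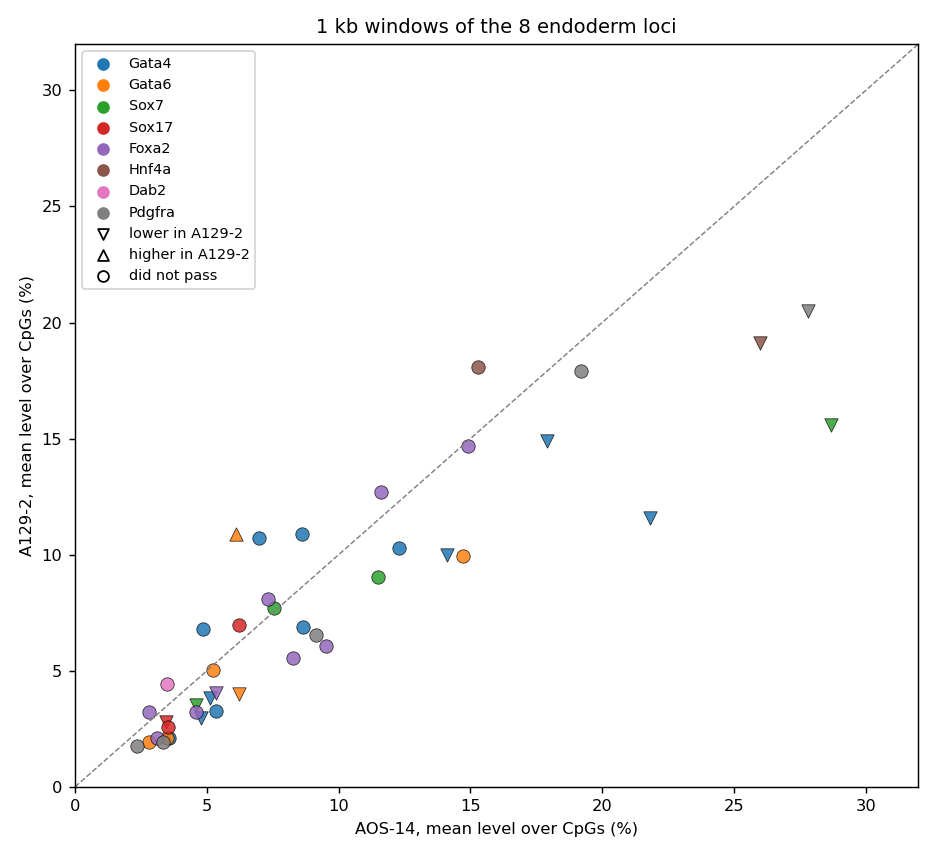
Mean methylation level of the 42 windows of 1 kb in A129-2 (vertical axis, percent) against AOS-14 (horizontal axis, percent), coloured by gene, with the line of equal levels dashed. Downward triangles are the 12 windows lower in A129-2, the upward triangle is the Gata6 window higher in A129-2 and circles did not pass; the windows above 20% in AOS-14 lie below the line.

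Single CpGs gave few calls. Of the 837, 23 were lower in A129-2, or 2.75%, and 0 were higher, where 12.9% of all CpGs were lower and 0.154% higher. With minima of 20 and of 50 reads 1 CpG was higher, beside 24 and 25 that were lower. It lies upstream of Gata6 at 11048441 and was named after its values were seen, with 10% in A129-2 (7 of 70 reads) and 1.71% in AOS-14 (3 of 175 reads). Its adjusted exact p was 0.0517 with 10 reads, 0.0456 with 20 and 0.0348 with 50. Before adjustment 47 were lower and 7 higher at p under 0.05 (Fisher's exact test). Hnf4a had 8 of the 23 and Gata4 6, Sox17 had none, and 11 of the 23 were inside CCGG. Without regard to the test, 425 CpGs were lower in A129-2, 260 higher and 152 tied at 0.

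Levels were also set out by distance from the start over all 8 loci. From the start to 0.5 kb inside, 69 CpGs of 6 genes averaged 5.60% in A129-2 and 6.35% in AOS-14. Between 2 and 5 kb, 214 CpGs averaged 4.11% in A129-2 and 5.56% in AOS-14. Beyond 20 kb, 174 CpGs of Gata4, Hnf4a, Dab2 and Pdgfra averaged 9.42% in A129-2 and 13% in AOS-14. Outside CCGG the same far CpGs averaged 5.06% in A129-2 and 6.51% in AOS-14, against 1.56% in A129-2 and 2.25% in AOS-14 between 2 and 5 kb. The groups hold different mixes of genes. Gata4 and Hnf4a are in both the far group and that between 2 and 5 kb, while Dab2 and Pdgfra are in the far group but not in the latter. These pooled means therefore mix distance with gene, and a trend with distance within a gene was not tested.

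A further 35 genes of endoderm were read in the same way, among them regulators, basement membrane genes and visceral endoderm receptors. Of their 23 testable promoters 10 were lower in A129-2 and 1 was higher, or 43.5% lower, where 30.1% of all promoters were lower and 0.783% higher. Their promoter median was 3.30% in A129-2, against 3.78% in AOS-14. Of their 31 testable bodies 26 were lower and 0 higher, or 83.9%, close to the 81.3% of all bodies, with a median of 8.46% in A129-2, against 13% in AOS-14. The largest promoter difference was at Cubn, an endocytic receptor of visceral endoderm, with 19.1% in A129-2, against 30% in AOS-14 over 5 CpGs (adjusted exact p = 4.20e-06). Pdx1, a regulator of pancreas, had 3.45% in A129-2 and 7.99% in AOS-14 over 27 promoter CpGs (adjusted exact p = 7.28e-13). Gata5, a relative of Gata4 and Gata6, was the promoter called higher, with 18.5% in A129-2 and 17.2% in AOS-14, but 4 of its 5 CpGs were lower and weighted by reads the difference was -4.16 points. Smaller promoter differences passed at Gsc (1.56% in A129-2, 3.24% in AOS-14), Cxcr4 (5.54% in A129-2, 6.71% in AOS-14) and Col4a1 (1.85% in A129-2, 2.94% in AOS-14).

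The bodies of these genes with the largest differences had levels in AOS-14 above those of the 8 genes' bodies other than Hnf4a. Hnf4g, a relative of Hnf4a, averaged 11.8% in A129-2, against 31.4% in AOS-14 over 5 CpGs (adjusted exact p = 2.14e-09). Nid2, which encodes a basement membrane protein, averaged 16.2% in A129-2, against 33.9% in AOS-14 over 24 CpGs (adjusted exact p = 1.20e-53). Cdx1, Sparc and Col4a2 averaged 16.4%, 17.9% and 17.2% in A129-2, against 28.7%, 28.5% and 27.3% in AOS-14. Col4a1, a collagen of the basement membrane, averaged 14.1% in A129-2, against 23.7% in AOS-14 over 61 CpGs (adjusted exact p = 2.13e-67). Genes of other early fates were counted beside them: 9 of 11 testable bodies of trophoblast genes and 9 of 12 of naive pluripotency genes were lower in A129-2, and 0 of either were higher, or 81.8% and 75% lower, where 81.3% of all bodies were lower. Promoters of trophoblast genes were lower in 5 of 8 and those of naive pluripotency genes in 1 of 8, where 30.1% of all promoters were lower. No difference between these lists was tested.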

How the data were processed

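Genomic DNA of 2 haploid embryonic stem cell lines was read, 1 library per line. The title names reduced representation bisulfite sequencing (RRBS); the labels' protocols describe panel capture before bisulfite conversion and paired 50 bp reads. BSMAP and the build mm10 were used, per the submitters' processing notes; version, trimming and duplicate handling: not given in the sources used here. The file headers give, for each CpG, counts of all reads and of methylated reads, added over strands. The authors deposited the level as a fraction, which equalled the ratio of the counts within 0.0006.

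Levels were recomputed from the deposited counts, in percent, as means over CpGs that both libraries cover with 10 reads or more (1065668 CpGs in A129-2 and 1165015 in AOS-14 had them; 153035567 read calls in A129-2, 178315194 in AOS-14). Differences are A129-2 minus AOS-14 in percentage points. Regions and windows needed 5 such CpGs. Summed methylated and unmethylated reads were compared by a two-sided Fisher's exact test, adjusted by Benjamini-Hochberg over all units of a kind in the genome, at an adjusted p of 0.05 with no minimum size. The direction is that of the mean over CpGs. The test weights CpGs by reads. The code was checked on simulated counts. Reads without molecular identifiers are not independent molecules.

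Gene positions came from RefSeq (GRCm38.p6). Strand came from its promoter table for Foxa2, Hnf4a, Dab2 and Pdgfra. For Gata4, Gata6, Sox7 and Sox17 the start is the gene end with at least 2 times as many compared CpGs as the other, an assumption. Exons were not used here. Named were the 8 genes, per gene up to 3 CpGs each way with the largest passing differences, its highest CpGs and its highest window, and up to 6 promoters and 6 bodies of other endoderm genes. The genes and lists were chosen with earlier results of these data known. Alternatives varied reads, size, CpG number, bounds, strands, depth and CCGG. Windows at listed starts, and bodies without the CpG of most reads, were added after seeing the data. The work used numba 0.67.0, scipy 1.17.1, numpy 2.4.6, pandas 2.3.3, matplotlib 3.10.9 and Python 3.11.15.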

Additional observations from a re-analysis of the deposited data

How the results depend on the processing

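No paired analysis was possible because each line has 1 library. All 8 bodies stayed lower in mean level under every alternative that gave a value, except Dab2 with minus strand reads (1.17 points, adjusted exact p = 0.0862). Body differences moved by over 1.5 times with 5 reads at Foxa2 (-0.15) and Sparc (-16.8), and with 50 reads at Sox7 (-3.13), Gata6 (-0.42), Foxa2 (-0.996) and Pdgfra (-4.01). They did so too with plus strand reads at Sox7 (-2.71), Dab2 (-2.87), Gata6 (-0.49), Hnf4a (-3.36) and Sparc (-6.81), with levels weighted by reads at Gata6 (-0.47) and Dab2 (-8.90), and outside CCGG for the bodies of Sox17, Gata4, Dab2 and Gata6, whose means are given above. Between 6 and 8 bodies passed without a minimum size. A minimum of 10 points left 0 bodies, 2 windows, 0 listed starts and 1 promoter and 5 bodies of the other endoderm genes; 25 points left 0 of each and 4 CpGs. Outside CCGG 3 windows, 11 CpGs, 1 listed start and 2 promoters of other endoderm genes were lower, and the Foxa2 downstream flank passed as higher (0.38 points, adjusted exact p = 0.0288). Plus strand reads gave 1 promoter (Sox7, adjusted exact p = 0.0463), 1 listed start, 5 windows and 7 CpGs, and 1 CpG as higher; minus strand reads gave 2 promoters of other endoderm genes, 0 listed starts, 7 windows and 10 CpGs. With at least 10 CpGs 1 listed start and 6 windows passed, and windows of 0.5 kb gave 7. Minima of 5 and of 50 reads each left 1 listed start as lower, as did promoters from 0.5 kb outside. With 5 reads 1 listed start, the innermost of Foxa2, passed and counted as higher by its mean over CpGs, which is not what the test on summed reads compares. With 5 reads 2 windows were higher too, beside 12 that were lower. Promoters from 2 kb outside gave 1 (Sox7). Upstream flanks to 10 kb gave 1 (Sox7, -9.06 points, adjusted exact p = 0.00791) and downstream flanks to 10 kb gave 1 (Gata4, -3.40 points, adjusted exact p = 1.19e-05). The 15 CpGs of that Gata4 flank lie inside the neighbouring protein-coding gene Neil2. Downstream flanks to 2 kb held too few CpGs for a test. Shares over all units under these alternatives are not given here, so a changed count cannot be read as particular to these genes. The causes were not tested.

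Signs turned for 14 single differences, 32 times in all, most of them differences that did not pass. With at least 20 reads the promoters of Sox17 (-1.11) and Foxa2 (-2.06), the inner Foxa2 start (-0.37) and the Sox17 window at 0.269 kb (-0.59) turned negative. With at least 50 reads the Sox17 promoter (-1.11), the same window (-0.59) and the inner Foxa2 start (-0.19) were negative, and the Gata6 upstream flank (0.32) and its window at -3.10 kb (0.40) positive. Outside CCGG the Foxa2 promoter was -0.15, the Gata6 and Pdgfra upstream flanks 0.67 and 0.040, and the Dab2 internal start and window -0.67. Plus strand reads gave -1.10 for the Sox17 promoter, -0.54 for its window, -0.87 for the inner Foxa2 start, and 0.95 and 0.82 for the Gata6 flank and window. Minus strand reads gave 0.15 for the Col4a1 promoter. Weighting by reads gave -0.71 and -0.50 for the Sox17 promoter and window, -2.46 and -0.44 for the outermost and inner Foxa2 starts and -4.16 for Gata5. Promoters from 2 kb outside gave -0.11 at Foxa2, and a minimum of 5 reads 0.29 at its innermost start. As few as 10 reads lie behind a single level.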
